A study of Mus musculus with 8 samples.

Results

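The inbred mouse line DU6i was compared with the line DUKs in epididymal fat, the fat pad that lies against the epididymis of the male mouse. These are 4 of the 8 arrays of the study: for each line, 1 array of chip A and 1 of chip B (Affymetrix), hybridised with the RNA of 1 pool of 20 males aged 42 days. DU6 and DBA, each also 1 pool of 20 males of that age, were the other lines measured, and their signals are given beside the pair. DU6 is known as a line selected for high body weight, DU6i as an inbred line derived from it, DUKs as its unselected control and DBA as an inbred strain; this is general knowledge, since the labels give only line names and keywords on selection, body fat, leptin and diabetes. The labels name no treatment, and they give the wish to damp differences between individuals of outbred stock as the reason for pooling. All probe sets outside the controls were compared within a chip, which gave 13069 of 13179, and 5579 of these were measured, meaning that their signal exceeded a noise floor in at least 1 of the 2 pools. With 1 pool and 1 array per line and chip there is no replicate and no p-value, a pool hides the animals in it, and precision is limited by how few arrays there are.

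White fat stores triglyceride. Its adipocytes take up fatty acids released from circulating lipoproteins, make new ones, bind them with carrier proteins and release them again through lipases, and they secrete hormones such as leptin and adiponectin. Vessels, a matrix of collagens and laminins, stromal precursors and immune cells make up the rest of the tissue, and the epididymal pad borders on a tract of secretory epithelium and stored sperm.

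DU6i and DUKs were alike in the quality control that set the lines apart. The pair was chosen for this likeness, so the likeness is no result of the comparison. Probe sets for pyruvate carboxylase, a mitochondrial enzyme used by the array's makers as a control, lie at several places along its mRNA. In DU6i MB, a probe set in the middle of the mRNA, gave 54.5% of the 3' signal on chip A and 45.3% on chip B. In DUKs it gave 53.9% and 55.6%. DU6 and DBA gave between 12.7% and 19.5% over both chips. MA, the other middle probe set, gave 19.6% on chip A and 20.4% on chip B in DU6i. In DUKs MA gave 13.3% and 22.4%, and in the other pools at most 1.26%. The pair thus matched less closely at MA on chip A. The 5' probe set gave 11.7% and 12.4% in DU6i and 14.2% and 14.8% in DUKs, and at most 2.31% in the other pools. The match was not complete for other controls: the 3' to 5' ratio of actin on chip A was 2.46 in DU6i and 1.73 in DUKs, and that of Gapdh on chip B was 0.90 and 1.41.

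**Figure D1:**
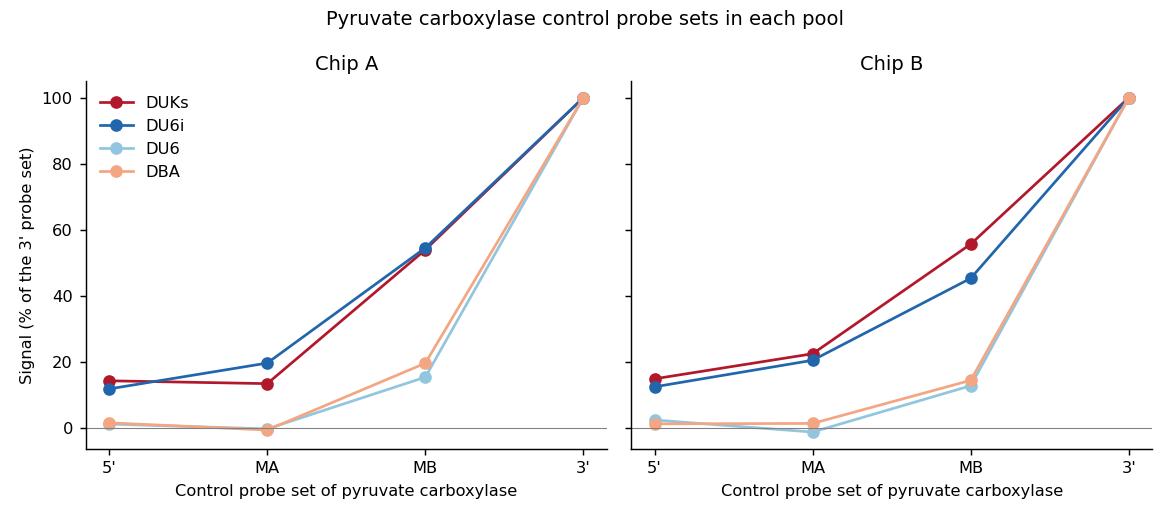
Signal of the pyruvate carboxylase control probe sets, from the 5' to the 3' end of the mRNA, as a percentage of the 3' probe set, for each pool on chip A and chip B (1 array per point). DU6i and DUKs run together at 54.5% and 53.9% at the middle probe set MB of chip A, above DU6 and DBA.

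The brightness of a probe set also went with its ratio, in opposite ways on the 2 chips. The 99th percentile of an array's signals was 34165 in DU6i and 27513 in DUKs on chip A, and 34486 and 51798 on chip B. Of 169 chip A probe sets with a mean signal above 20000, 142 were higher in DU6i, with a median log2 ratio of 0.40. Of 281 such probe sets on chip B, 82 were higher and the median was -0.27. Quantile normalisation, which gives all arrays of a chip one distribution of signals, brought these medians to 0.05 and 0.01. The quantile-normalised log2 ratio is therefore printed beside the deposited one for each gene named here that it took under 2-fold or to the other side of equality, and for other bright genes where it moved the value. The part of brightness in other results was not tested.

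**Figure D2:**
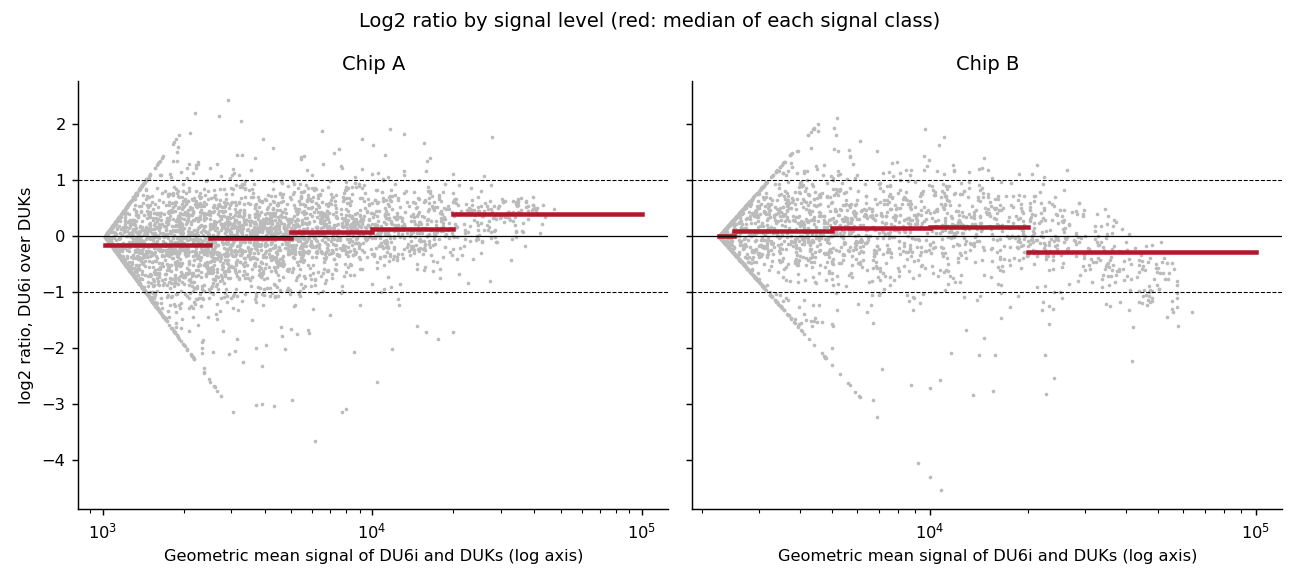
Log2 ratio of DU6i over DUKs for each measured probe set against its geometric mean signal in both pools (log axis), by chip, with red bars at the median of each signal class and dashed lines at 2-fold. The bar of the brightest class lies at 0.40 on chip A and at -0.27 on chip B.

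Across both chips 189 probe sets had a signal 2-fold or more above DUKs in DU6i (3.39% of those measured) and 377 one 2-fold or more below (6.76%), while the median log2 ratio of all was 0.00. A difference of 2-fold is a rule of size. By 1 probe set per gene, 100 of 3448 named genes were higher (2.90%) and 239 lower (6.93%). At 4-fold or more, 2 genes were higher and 44 lower. The SD of a single log2 ratio, taken from the 2 probe sets of each of 391 genes, all above the floor in both pools, was 0.40, a factor of 1.32; it covers differences between probe sets and not between animals or pools. In 268 of the 391 genes both probe sets were on the same chip. For 19 probe sets measured on both chips, 16 of them controls, the log2 ratios differed between chips by a median of 0.37 and at most 1.81. Of 62 genes past 2-fold that had a second measured probe set, 53 had the same direction there and 20 were past 2-fold again.

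**Figure D3:**
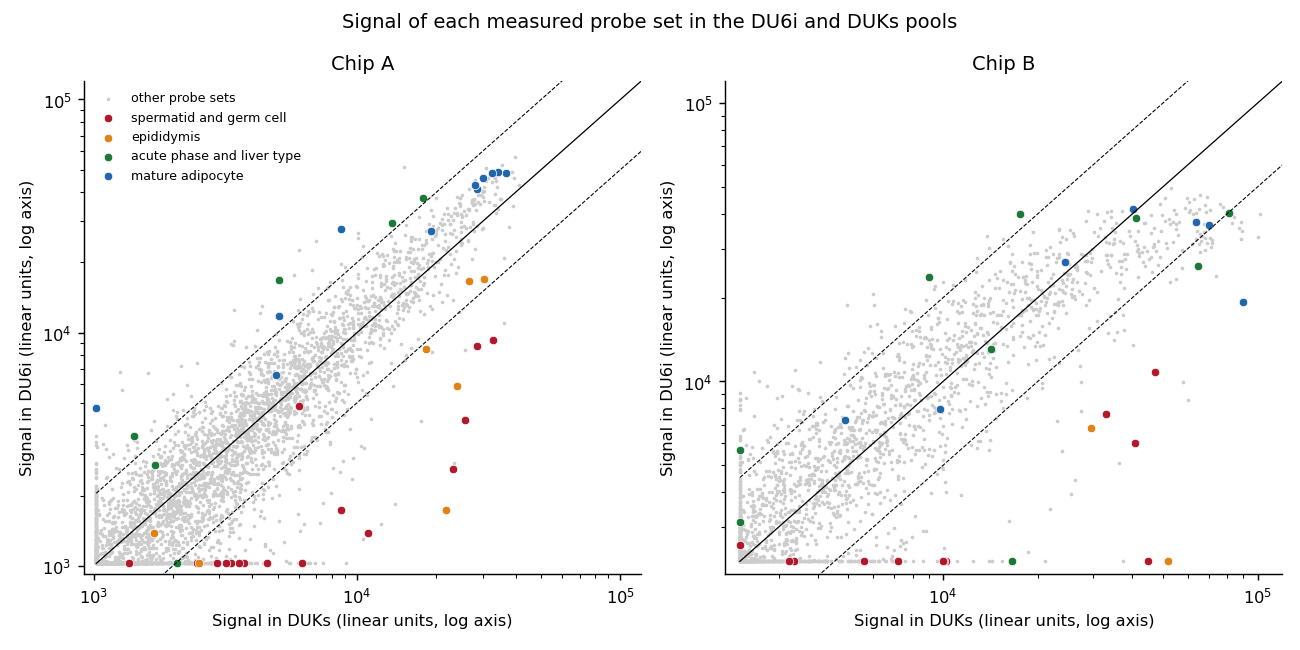
Signal of each measured probe set in DUKs (horizontal) and DU6i (vertical), both on log axes, with signals at or under the floor drawn at it, the line of equality and dashed lines at 2-fold; coloured points are the probe sets that stand for genes of 4 lists. Spermatid and epididymal genes lie below the lower dashed line in most cases, and mature adipocyte genes lie above equality on chip A.

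Genes of sperm formation made up the gene list with the lowest median against DUKs. Spermatids, the haploid cells of the testis, pack their DNA first with transition proteins such as Tnp1 and then with protamines such as Prm1, and they carry their own forms of glycolytic enzymes, among them Gapdhs. The upstream sequences of these 3 genes are shown because they belong to the group that differed most and hold a sequence of the cAMP response element type, TGACNTCA on either strand. RefSeq gives the 250 bases before each start on GRCm38.p6, all on the minus strand: Prm1 at chr16:10796824-10797073, Tnp1 at chr1:73015900-73016149 and Gapdhs at chr7:30743682-30743931, the last being 1 of 2 starts listed. Capitals mark the matches.
Prm1: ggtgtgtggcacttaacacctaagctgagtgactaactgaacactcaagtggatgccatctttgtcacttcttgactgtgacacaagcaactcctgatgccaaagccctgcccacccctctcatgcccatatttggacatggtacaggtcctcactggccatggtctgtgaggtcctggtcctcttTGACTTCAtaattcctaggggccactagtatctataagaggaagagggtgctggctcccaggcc
Tnp1: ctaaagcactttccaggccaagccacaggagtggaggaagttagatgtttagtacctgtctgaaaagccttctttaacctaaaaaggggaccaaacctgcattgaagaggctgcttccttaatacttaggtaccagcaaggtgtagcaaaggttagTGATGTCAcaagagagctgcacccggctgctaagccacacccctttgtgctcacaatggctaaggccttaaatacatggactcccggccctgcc
Gapdhs: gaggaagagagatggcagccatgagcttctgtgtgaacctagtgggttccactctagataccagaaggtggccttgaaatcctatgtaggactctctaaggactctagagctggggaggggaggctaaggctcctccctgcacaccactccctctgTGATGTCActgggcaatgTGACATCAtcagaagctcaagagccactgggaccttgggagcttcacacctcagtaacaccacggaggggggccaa
The match began 64 bases before the start in Prm1 and 94 bases before it in Tnp1, and Gapdhs held 2. Of 23 measured germ cell genes with a promoter in the table, 6 (26.1%) held the sequence in the 250 bases before the start. The share was 7.59% of all 27025 promoters, taken as 1 start per gene, and 6.20% of those of the measured genes. A match of letters is a description and not a site. The list was assembled from genes known from germ cells, so the share bears on no difference between the lines.

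Prm1 had signals of 8740 in DU6i, 28545 in DUKs, 8576 in DU6 and 19113 in DBA, and was 3.27-fold lower in DU6i than in DUKs. Tnp1 had 10822, 47073, 14689 and 20147 in the same order, a 4.35-fold difference. Gapdhs had 1741, 8690, 1833 and 3625, a 4.99-fold difference. All 3 were highest in DUKs, and DU6i lay nearer to DU6 than to DUKs for each. Odf1, a protein of the sperm tail, had 1866, 44685, 9670 and 14282, so that in DU6i it was under the chip B floor of 2258 and at least 19.8-fold lower than in DUKs. Ldhc, the sperm form of lactate dehydrogenase, had 2604, 23076, 3450 and 10134, an 8.86-fold difference. Pgk2, the sperm form of a glycolytic kinase, was at least 6.04-fold lower. Smcp, of the mitochondrial capsule of sperm, was 6.11-fold lower. Hspa4l, a relative of Hsp70, had 1377, 11011, 1388 and 2822, with a quantile-normalised log2 ratio of -2.88. Dnajb3, a DnaJ protein of spermatids, was 6.80-fold lower and gave a log2 ratio of -2.84 by a second probe set.

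Of 55 genes on the spermatid and germ cell list, 36 were on the arrays and 28 measured, and 23 of these were at least 2-fold lower in DU6i, where 6.93% of all named genes were, and 0 at least 2-fold higher (2.90% of all). The median log2 ratio was -1.85, against -0.01 for all genes, and -2.22 for the 10 members above the floor in both pools, where no bound enters. With all 36 genes and no filter it was -1.69. It was alike on chip A (-1.82) and chip B (-2.12) and after quantile normalisation (-1.83). Stages before the spermatid were less well covered. Ddx4, an RNA helicase of the whole germ line, was at least 3.19-fold lower and Hspa2, needed in meiosis, at least 2.49-fold. Sycp3, of the chromosome axis in meiosis, was near the floor in DU6i (2592) and under it in DUKs (1678), and Sycp1 and Dazl were under it in all pools. The 28 genes summed to 71816 signal units in DU6i, 384355 in DUKs, 80498 in DU6 and 157320 in DBA. DUKs stood apart, with both other pools nearer to DU6i on the log scale, for 20 of the 28. Where transcripts of another tissue are present in a pool, fewer cells of a type and less RNA per cell cannot be told apart, here as in all results that follow.

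Several of the genes furthest below DUKs outside the list are also known from the testis. Crisp2, a secreted protein of the acrosome and tail, was 7.57-fold lower, Cox8c, the testis form of a cytochrome oxidase subunit, 8.06-fold lower, and Pabpc2, the testis form of a poly(A)-binding protein, at least 7.19-fold. Syce2, of the meiotic chromosome axis, was 5.38-fold lower. Larp7, an RNA-binding protein, had 1052 in DU6i, 5395 in DUKs, 1680 in DU6 and 1744 in DBA, a 5.13-fold difference with DUKs as the high pool. In DU6i both genes lay barely above the chip A floor of 1022.8, Syce2 with 1028, so their folds are close to bounds. Dmrtb1, a regulator of the entry of germ cells into meiosis, was at least 8.86-fold lower by 1 probe set, but its log2 ratio by another was -0.07. Slc2a3, a glucose transporter, was at least 6.38-fold lower, with -0.90 by a second probe set, and Fbp1, of gluconeogenesis, at least 4.31-fold; DUKs was highest of the pools in both. Of all 239 genes at least 2-fold lower in DU6i, 31 were on the germ cell, epididymis or accessory gland lists, and of the 44 at least 4-fold lower, 18 were. Of the 3448 named genes measured, these lists held 28, 9 and 3. The rest of the lower genes were not classed by tissue.

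**Figure D4:**
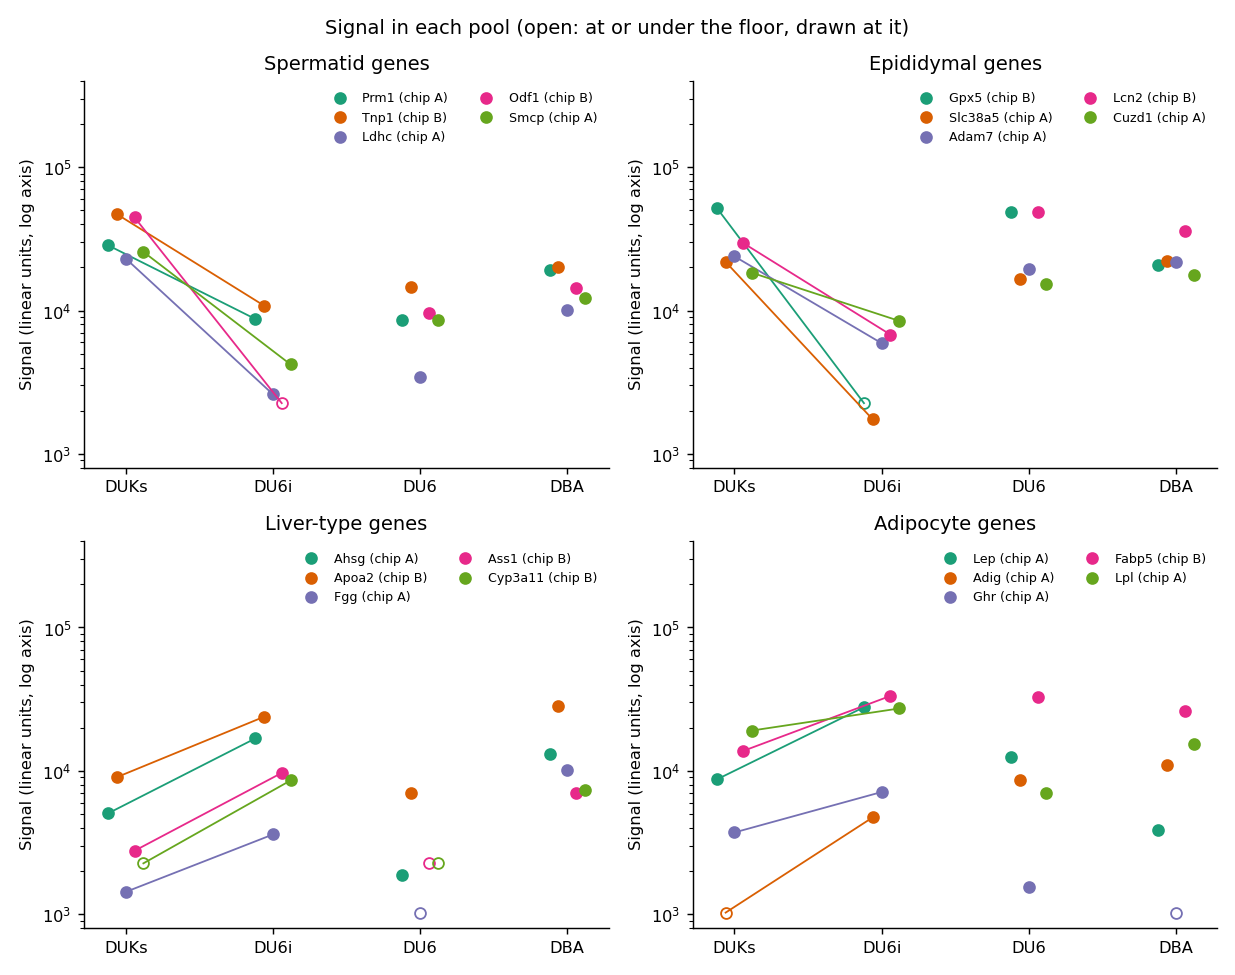
Signal of 20 genes in each pool on a log axis, in 4 panels by gene group, with 1 array per point, open circles for signals at or under the floor (drawn at it) and lines joining DUKs to DU6i. Spermatid genes are highest in DUKs, epididymal genes lowest in DU6i, and the liver-type genes higher in DU6i and DBA than in DUKs and DU6.

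Genes of the epididymis, whose list holds the gene furthest below DUKs, had another order of the pools. Gpx5, a glutathione peroxidase secreted onto maturing sperm, had 52044 in DUKs, 49126 in DU6 and 20753 in DBA and a signal below 0 in DU6i, which gave a log2 ratio against DUKs of -4.53 or less. Slc38a5, an amino acid transporter, had 1737 in DU6i and 21855, 16577 and 22076 in DUKs, DU6 and DBA, a 12.6-fold difference from DUKs. Adam7, a membrane protein of the epididymal epithelium, had 5914 in DU6i against 23896, 19574 and 21665, a 4.04-fold difference. DU6i was thus the low pool for all 3, and the other 3 pools lay together for Slc38a5 and Adam7. Pemt, of phosphatidylcholine synthesis, was under the floor in DU6i alone and at least 2.45-fold lower than in DUKs. Cuzd1 was 2.17-fold lower and Lcn2, which binds iron-carrying siderophores, 4.36-fold lower, with -2.93 by a second probe set. Of 13 list genes on the arrays 9 were measured, all 9 lower, where 50.9% of all named genes were, and 6 of them at 2-fold or more (6.93% of all), with a median of -1.29 (-1.23 after quantile normalisation). DU6i stood apart from the other 3 pools for 6 of the 9. Clu and Cd52, which many tissues express, were 1.79-fold and 1.60-fold lower and set DUKs apart instead.

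Accessory gland genes gave another pattern. Sbp, which binds spermine in gland secretions, had 21028 in DUKs and was under the floor in DU6i, DU6 and DBA, a difference from DU6i of at least 9.31-fold. Spink1, a trypsin inhibitor of secretions, was above the floor in DUKs alone, with 5876, and at least 2.60-fold lower in DU6i. Svs2, Svs4 and Svs5, secreted by the seminal vesicle, were under the floor in DU6i, DUKs and DU6. In DBA they had 19922.5, 42807 and 43837.

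Epithelial and mesothelial genes lay lower in DU6i as well, by less. Of 32 genes on the arrays 18 were measured, 16 lower, where 50.9% of all named genes were; 1 of them passed 2-fold, a share no larger than the 6.93% of all genes. The median was -0.61 (-0.56 after quantile normalisation). Of the 18, 10 were above the floor in both pools, also with a median of -0.61. The others were above it in 1 pool alone, which fixes their direction. Over all named genes, 2808 of 3448 were above it in both pools. Dsp, which links keratin filaments to desmosomes, had 1094 in DU6i, 2482 in DUKs, 3826 in DU6 and 6033 in DBA, a 2.27-fold difference from DUKs (-0.96 after quantile normalisation), with -1.09 by a second probe set. DU6i was the lowest pool, and this held for Krt18 and Krt7 too. Wt1 and Upk3b, both known from mesothelium, were 1.57-fold and 1.88-fold lower. Krt19 (1.34-fold) and Msln (at least 1.50-fold) were higher. The epididymis is itself lined by epithelium, and its list had the median of -1.29 given above. The part of either tissue in these values was not tested.

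Of 9 measured genes of steroid and glucocorticoid metabolism 7 were lower (50.9% of all named genes were), 3 of them at 2-fold (6.93% of all genes). At least 2-fold higher was 1 gene (2.90% of all), and the median was -0.51 (-0.40 after quantile normalisation). Cyp17a1, which makes androgen precursors, had 2788 in DUKs and was under the floor in DU6i, at least 2.73-fold lower, and Hsd3b1, another enzyme of the pathway, was also at least 2.73-fold lower; both were measured through DUKs alone. Nr5a1, the transcription factor that drives these genes in gonad and adrenal, was 2.34-fold lower. All 3 set DUKs apart from the other pools, as most germ cell genes did, and the germ cell list had its median of -1.85 in the same pair. Whether these genes share a source with the germ cell genes was not tested. Star and Cyp11a1, of the first step of steroid synthesis, were under the floor in both pools. Hsd11b1, which reactivates glucocorticoid in fat, was 1.48-fold lower, but its log2 ratio turned from -0.56 to 0.17 after quantile normalisation. Hsd17b4, a peroxisomal enzyme, was 2.22-fold higher and Per1, a clock gene that glucocorticoid induces, 1.90-fold.

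Among the genes higher in DU6i were many that the liver secretes. Ahsg, the plasma protein fetuin-A, had 16797 in DU6i, 5042 in DUKs, 1880 in DU6 and 13196 in DBA, a 3.33-fold difference from DUKs. Apoa2, of high-density lipoprotein, had 23812, 9021, 7023 and 28287, a 2.64-fold difference, with a log2 ratio of 0.95 by a second probe set. Fgg, a fibrinogen chain, had 3591, 1427, 883 and 10102, a 2.52-fold difference. For all 3, DU6i and DBA were the high pools and DU6 the lowest. Ambp, the precursor of a plasma protease inhibitor, was at least 2.52-fold higher, with 1.22 by a second probe set. Outside the list, Cyp3a11, a cytochrome P450 of hepatocytes, had 8557 in DU6i and 7365 in DBA and lay below the floor in DUKs and DU6, so that it was at least 3.79-fold higher in DU6i than in DUKs. Ass1, of the urea cycle, had 9658, 2764, 280 and 7027, a 3.49-fold difference. Cyp2f2, a P450 of airway and liver, was 3.14-fold higher, with 1032 in DUKs, barely above the chip A floor of 1022.8.

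Not all liver-type genes were higher. Of 22 on the arrays 17 were measured, 8 of them higher by 2-fold or more (2.90% of all genes) and 4 lower by as much (6.93% of all), with a median of 0.67; it was 1.12 for the 7 on chip A and 0.02 for the 10 on chip B. Alb, the albumin gene that defines hepatocytes, had 38627 in DU6i, 41207 in DUKs, 21333 in DU6 and 34102 in DBA, so that the pair differed by a log2 ratio of -0.09 (0.45 after quantile normalisation). Apoh and Hpx, also of plasma, were at least 1.39-fold and 1.59-fold higher. Serpina1a and Serpina1e, near-identical genes of alpha-1-antitrypsin whose probe sets may read each other's transcripts, were 2.28-fold and 3.57-fold higher. The list also holds genes that adipocytes express. Of these, Rbp4, which carries retinol, was 2.17-fold higher (0.77 after quantile normalisation) and Orm1 2.35-fold, whereas Saa3, an acute phase protein, was at least 7.35-fold lower, with -2.29 by a second probe set. Hp, 2.01-fold lower, had a quantile-normalised log2 ratio of -0.17, and Apoe, 2.49-fold lower, one of -0.84 and 0.54 by a second probe set as deposited. DBA was nearer to DU6i, and DU6 nearer to DUKs, for 9 of the 17. Whether liver-type RNA from another tissue was present was not tested.

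Of the adipocyte's hormones, leptin passed 2-fold. Lep had 27777 in DU6i, 8697 in DUKs, 12446 in DU6 and 3837 in DBA, and was 3.19-fold higher in DU6i than in DUKs (quantile-normalised log2 ratio 1.28). DU6i was the highest pool and DU6 the next. Retn, for resistin, was 1.53-fold higher and Adipoq, for adiponectin, 1.32-fold, but both are very bright on chip A and had quantile-normalised log2 ratios of 0.21 and 0.00. Adig, a small adipocyte protein that promotes leptin secretion, had 4730 in DU6i, a signal under the floor in DUKs, 8680 in DU6 and 10986 in DBA, so that it was at least 4.62-fold higher in DU6i. DUKs alone was low. Angptl4, an inhibitor of lipoprotein lipase, was 1.53-fold higher and Nampt 1.22-fold, and Igf1, the growth factor, 1.32-fold. The list of adipokine and secreted genes had 12 measured members, 8 of them higher, where 49.1% of all named genes were. Its median was 0.40 (0.28 after quantile normalisation). At 2-fold or more 3 members were higher (2.90% of all genes), namely Lep, Rbp4 and Orm1. As many were lower (6.93% of all), namely Saa3, Lcn2 and Hp, given above.

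Mature adipocyte markers as a list lay higher in DU6i on chip A and not on chip B. Of 18 measured genes 14 were higher (49.1% of all named genes were), 3 of them at 2-fold (2.90% of all genes). Of the 4 lower ones 1, Dgat2, was past 2-fold (6.93% of all). The median was 0.51 (0.21 after quantile normalisation). The 11 on chip A had a median of 0.56 and the 7 on chip B one of -0.29. Fabp4, the fatty acid carrier that marks adipocytes, had 48639 in DU6i, 34237 in DUKs, 21433 in DU6 and 27836 in DBA, a 1.42-fold difference. Lpl, the lipoprotein lipase, had 27218, 19095, 7001 and 15474, a 1.43-fold difference, and Lipe, the hormone-sensitive lipase, 46226, 30054, 14763 and 23530, a 1.54-fold difference. DU6i was the highest pool in each, and the quantile-normalised log2 ratios were 0.11, 0.22 and 0.20. Pparg, the master regulator of adipocyte formation, is dimmer, was 1.34-fold higher and kept 0.39 after quantile normalisation. Cebpa, its partner, was 1.22-fold lower and Cebpb, which acts earlier in adipocyte formation, at least 2.77-fold higher. Slc2a4, the insulin-responsive glucose transporter, was 1.49-fold higher, with 0.38 by a second probe set.

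Single steps of lipid handling went apart. Fabp5, another fatty acid carrier, had 33300 in DU6i, 13759 in DUKs, 32775 in DU6 and 26032 in DBA, a 2.42-fold difference. Vldlr, a lipoprotein receptor, was at least 2.66-fold higher. Fabp3, the carrier of heart and muscle, had 472, 6625, 1519 and 990 and was at least 6.48-fold lower in DU6i. DUKs was thus the low pool for Fabp5 and the high pool for Fabp3. Cd36, the fatty acid translocase, had a log2 ratio of 0.05 (0.61 after quantile normalisation), and of 0.49 by a second probe set. In triglyceride synthesis, Dgat1 was 1.61-fold higher, while Dgat2, the other enzyme of the last step, had 19303 in DU6i, 90083 in DUKs, 72761 in DU6 and 35559 in DBA and was 4.67-fold lower, with a quantile-normalised log2 ratio of -1.70. Fasn, the fatty acid synthase, and Gpd1, which supplies the glycerol backbone, were 1.58-fold and 1.92-fold lower as deposited, and 0.08 and -0.26 on the log2 scale after quantile normalisation. Scd1 was 1.48-fold higher (0.18), Me1, the malic enzyme, 1.52-fold higher (0.45) and Thrsp, linked to lipogenesis, 1.71-fold higher (0.72). The synthesis list of 12 genes had a median of 0.51, of 0.22 after quantile normalisation and of -0.80 for the 4 genes on chip B.

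Genes of fatty acid oxidation lay on one side. All 14 measured genes of 16 on the arrays were higher in DU6i, where 49.1% of all named genes were. All 14 were also higher after quantile normalisation, with a median of 0.52 as deposited and 0.48 after it. Only 1 passed 2-fold, where 2.90% of all genes did. Decr1, needed to oxidise unsaturated fatty acids, had 10274 in DU6i, 4182 in DUKs, 11400 in DU6 and 8181 in DBA, a 2.46-fold difference. DUKs was the low pool. Abcd2, a peroxisomal transporter of very long chains, was 1.87-fold higher, Acadvl, the dehydrogenase of very long chains, 1.69-fold and Cpt2, of the mitochondrial carnitine shuttle, 1.45-fold. Cpt1a, the entry step, was 1.19-fold higher. Decr1 and Abcd2 alone of the 14 differed by more than 2 SDs of the probe set error. Ucp1, of brown fat, and Ppara were under the floor in both pools.

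Of 14 measured genes of the citric acid cycle 13 were higher (49.1% of all named genes were), with a median of 0.41 (0.28 after quantile normalisation). Idh1, a cytosolic isocitrate dehydrogenase, was 2.03-fold higher (0.84 after quantile normalisation), Pcx, the pyruvate carboxylase gene by its own probe set, 1.60-fold, and Cs, citrate synthase, 1.28-fold. The respiratory chain list of 32 genes had a median of 0.26, of 0.07 after quantile normalisation and of -0.03 on chip B. Cox8b, a cytochrome oxidase subunit of heart, muscle and brown fat, was under the floor in DUKs alone and at least 2.70-fold higher in DU6i, whereas Cox4i1 was 2.08-fold lower (-0.43 after quantile normalisation). Glycolysis genes centred on -0.06, with Gys1, glycogen synthase, 2.15-fold higher and Aldoa 2.34-fold lower. Aldoa had a quantile-normalised log2 ratio of -0.66, and deposited ones of -0.99 and 0.44 by other probe sets.

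Few genes of growth hormone and insulin signalling passed 2-fold. Ghr, the growth hormone receptor, had 7106 in DU6i, 3710 in DUKs, 1534 in DU6 and 926, under the floor, in DBA, and was 1.92-fold higher in DU6i than in DUKs. DU6i was highest. Pik3ca, the catalytic subunit of phosphoinositide 3-kinase, was 2.21-fold higher, and Akt2 at least 1.80-fold. Insr, Irs1 and Socs2 were under the floor in both pools. The median of the 13 measured genes was 0.25.

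**Figure D5:**
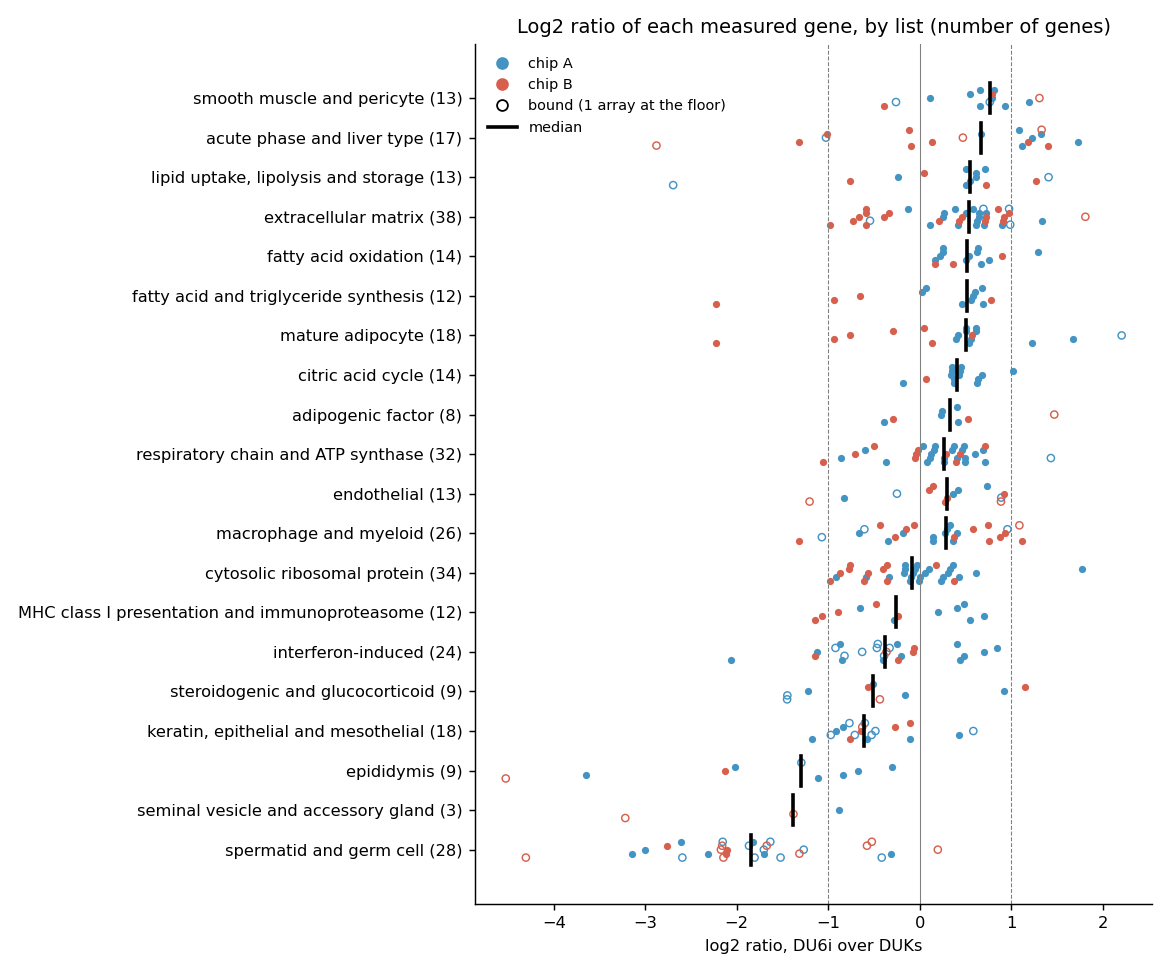
Log2 ratio of DU6i over DUKs for each measured gene of 20 lists, in rough order of median (black bar), coloured by chip, with open circles for bounds and dashed lines at 2-fold. The spermatid and germ cell list is lowest at -1.85 and the smooth muscle and pericyte list highest at 0.77. In the mature adipocyte list the median is 0.56 for chip A genes and -0.29 for chip B genes, and the points of the chips overlap.

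The smooth muscle and matrix lists lay higher in DU6i. Smooth muscle and pericyte genes had a median of 0.77 (0.70 after quantile normalisation), with 11 of 13 higher (49.1% of all named genes were). Myh11, the smooth muscle myosin, had 8664 in DU6i, 3791 in DUKs, 3835 in DU6 and 5951 in DBA, a 2.29-fold difference. Tagln, an actin-binding protein, was 1.91-fold higher and Pdgfrb, a receptor of pericytes and stroma, at least 2.48-fold. DU6i was the highest pool in all 3. Acta2, the bright actin of smooth muscle on chip B, was 1.31-fold lower, and 0.30 on the log2 scale after quantile normalisation. The epididymal duct and the blood vessel both carry smooth muscle, and their parts were not told apart.

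Of 38 measured matrix genes 28 were higher (49.1% of all named genes were), with a median of 0.55. After quantile normalisation 32 were higher (median 0.42). Nid2, which links laminin to collagen in basement membranes, had 7932 in DU6i and 5378 in DU6, 2537 in DBA and 2037, under the floor, in DUKs, and was at least 3.51-fold higher in DU6i. Its relative Nid1 was 1.97-fold higher, the laminin chains Lamb1, Lamc1, Lama4 and Lama2 at least 1.97-fold, 1.57-fold, 1.50-fold and 1.42-fold higher, and the basement membrane proteoglycan Hspg2 1.88-fold. Col4a1 and Col4a2, the network collagens of basement membranes, were 1.31-fold and 1.53-fold higher (0.06 and 0.28 after quantile normalisation). Col15a1, of the zone next to the basement membrane, was 2.53-fold higher (0.98 after quantile normalisation). The fibril collagens Col1a1, Col1a2 and Col3a1, bright on chip B, were 1.66-fold, 1.50-fold and 1.51-fold lower, and -0.15, -0.36 and 0.29 on the log2 scale after quantile normalisation. Col5a1 and Col5a2, which set fibril width, were 1.87-fold and 1.89-fold higher.

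Stromal genes were mixed, with a median of 0.20 over 16 genes. Htra3, a secreted serine protease, was 3.04-fold higher, with 1089 in DUKs, near the chip A floor of 1022.8. Fstl1 was 2.13-fold higher (0.82 after quantile normalisation) and Sfrp2, a Wnt modulator, 1.98-fold. Gas6, a ligand of TAM receptors, was 2.37-fold lower and Pdgfra, of fat precursors, 1.39-fold lower. Endothelial genes had a median of 0.29 with 10 of 13 higher (49.1% of all named genes were). Among these were Tie1 (1.90-fold), Pecam1 (1.34-fold) and Kdr (1.23-fold), the receptor of VEGF. Ets1 was at least 2.30-fold lower by 1 probe set and 0.43 on the log2 scale by another.

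Interferon-induced genes lay lower in DU6i. Interferons act through STAT and IRF factors on genes whose promoters hold a repeated GAAA element. Ifit3 and Gbp3, 2 such genes among the lower members, are shown with the matches in capitals to GAAA, any 2 bases and GAAA again, on either strand, from RefSeq on GRCm38.p6 and the plus strand: Ifit3 at chr19:34583279-34583528 and Gbp3, 1 of 2 starts listed, at chr3:142559794-142560043. In Gbp3 the 2 matches overlap.
Ifit3: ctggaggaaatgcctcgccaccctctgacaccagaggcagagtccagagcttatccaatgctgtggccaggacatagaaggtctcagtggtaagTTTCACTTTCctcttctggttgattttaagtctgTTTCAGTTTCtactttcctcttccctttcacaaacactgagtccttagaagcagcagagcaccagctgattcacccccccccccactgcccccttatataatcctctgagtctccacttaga
Gbp3: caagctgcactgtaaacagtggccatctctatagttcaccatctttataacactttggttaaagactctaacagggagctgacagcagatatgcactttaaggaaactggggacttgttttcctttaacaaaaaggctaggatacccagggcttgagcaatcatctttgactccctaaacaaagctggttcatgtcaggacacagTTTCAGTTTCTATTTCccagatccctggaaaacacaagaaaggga
Of 20 measured interferon genes with a listed promoter, 9 (45%) held the element, against 3.04% of all promoters and 3.10% of those of the measured genes. The list was assembled from genes known to respond to interferon, so the share bears on no difference between the lines.

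Ifit3, which binds viral RNA with its relatives, had 1522 in DU6i, 3324 in DUKs, 2940 in DU6 and 2141 in DBA, a 2.18-fold difference from DUKs (-0.98 after quantile normalisation). Gbp3, a guanylate-binding protein, had 1543, 2829, 2457 and 2418, a 1.83-fold difference. Iigp1, a GTPase that attacks the vacuoles of parasites, had 1258, 5268, 2056 and 9845, a 4.19-fold difference. DU6i was the lowest pool in each, and DUKs the highest in the first and second. Over the 24 measured genes of the list, however, DU6i stood apart for 4 and DUKs for 9. Psmb9, an inducible proteasome subunit, was 2.21-fold lower, with -0.67 by a second probe set. Irf7, a regulator of the response, was 1.80-fold lower and Igtp at least 1.89-fold. Of 36 genes on the arrays 24 were measured, 19 lower (50.9% of all named genes were) and 3 of them at 2-fold (6.93% of all), with a median of -0.38 (-0.33 after quantile normalisation, -0.22 for the 16 above the floor in both pools). Irf2, Psmb10 and Psme1 were 1.80-fold, 1.63-fold and 1.40-fold higher. Ifi27 had 44633 in DU6i, 33667 in DUKs and 3127 in DU6, and its quantile-normalised log2 ratio between DU6i and DUKs was -0.01.

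Of the class I MHC pathway, H2-D1 was 1.86-fold lower and B2m 2.10-fold lower on chip B, whereas H2-K1 was 1.33-fold higher on chip A; after quantile normalisation they had log2 ratios of -0.58, -0.50 and 0.08. The list's median was 0.41 for 7 genes on chip A and -0.90 for 5 on chip B. H2-Eb1, a class II chain, had 8627 in DUKs and 12279 in DBA and was under the floor in DU6i and DU6, a difference from DUKs of at least 3.82-fold in DU6i, but a second probe set gave -0.16. H2-Ab1 was 1.68-fold higher and H2-Aa 1.16-fold lower.

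Macrophage genes were slightly higher in DU6i, with 16 of 26 measured genes higher, where 49.1% of all named genes were. The list's median was 0.29 (0.37 after quantile normalisation). By chip it was 0.15 for the 13 genes on chip A and 0.59 for the 13 on chip B. Mpeg1, a pore protein of macrophages, had 7827 in DU6i, 3601 in DUKs, 7760 in DU6 and 5278 in DBA, a 2.17-fold difference. Adgre1, the F4/80 antigen, was 1.91-fold higher, Lgals3 1.69-fold, Mrc1 1.68-fold and Csf1r, the receptor of the macrophage growth factor, 1.50-fold. DU6 was higher still for Lgals3 and Csf1r. Cd68 was 1.29-fold higher, and Itgb2, an integrin chain of leukocytes, at least 2.13-fold. Ptprc, of all leukocytes, was 1.58-fold lower, as were C1qb (1.36-fold) and the calcium-binding protein S100a9 (at least 2.10-fold), while S100a8 was 1.84-fold higher. At 2-fold or more 2 list members were higher (2.90% of all genes), Mpeg1 and Itgb2. As many were lower (6.93% of all), S100a9 and Apoe, the latter given above. Of 8 measured lymphocyte genes 4 were higher and 4 lower, with a median of -0.13 (0.08 after quantile normalisation). Ms4a1, the B cell antigen CD20, was 4.30-fold lower and Jchain, of secreted antibodies, at least 2.58-fold. Cd3e, of the T cell receptor complex, and Thy1 were at least 1.88-fold and 1.81-fold higher, Ighm, an antibody heavy chain, 1.16-fold, and Cd79b was close to the floor. Cd3d, Cd4 and Cd8a were under it in both pools.

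Other genes named by size belong to none of these groups. Slc6a13, which carries GABA and taurine into cells, had 6785 in DU6i, 1260 in DUKs, 3987 in DU6 and 1568 in DBA, a 5.39-fold difference and the largest ratio over DUKs of the named genes above the floor in both pools. Hfe, which governs iron uptake, had 8227 and 8183 in DU6i and DU6 and lay below the floor in DUKs and DBA, at least 3.64-fold higher in DU6i. Both were high in the 2 related lines. Rpl41, a ribosomal protein gene, had 51314, 15018, 5063 and 11142, a 3.42-fold difference (1.30 after quantile normalisation), whereas the 34 measured ribosomal protein genes had a median of -0.08. Sod1 and Sod2, the cytosolic and mitochondrial superoxide dismutases, were 2.97-fold and 2.29-fold higher and set DUKs apart as the low pool. Mt1, a metallothionein, was 2.96-fold lower, with -1.61 by a second probe set, and Gstm5, a glutathione transferase, 3.04-fold lower, with -1.41. C4bp, a regulator of complement, had 1524 in DU6i against 7222 in DUKs, 16244 in DU6 and 17241 in DBA, a 4.74-fold difference from DUKs. DU6i was the lowest pool and DUKs the next. Ddr1, a collagen receptor, was 3.61-fold higher, with 1108 in DUKs, near the chip A floor of 1022.8. Tnfrsf21, a death receptor, was 3.34-fold higher and Pcp4, a calmodulin-binding peptide, at least 3.82-fold. Stx2, a syntaxin of vesicle fusion, had 7432 in DU6i, 2473 in DUKs, 6033 in DU6 and 3133 in DBA, a 3.01-fold difference. Fam20c, a kinase of secreted proteins, and Tgfb1i1, an adaptor at focal adhesions, were under the floor in DUKs alone and higher in DU6i by at least 3.22-fold and 3.33-fold. Slc20a1, a phosphate transporter, was at least 2.47-fold higher.

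The signals of DU6 and DBA were set against those of the 2 lines. A pool was counted as nearer to DU6i or to DUKs by the midpoint of their log2 signals. Among the 239 genes at least 2-fold lower in DU6i, DUKs stood apart for 97 and DU6i for 64. In 40 DU6 was nearer to DU6i and DBA to DUKs, and in 38 it was the other way round. Among the 100 higher genes DUKs stood apart for 33 and DU6i for 23, with 24 where DU6 went with DU6i and 20 where DBA did. All these counts use the same DU6i and DUKs arrays. How often each place arose over all measured genes was not counted. These counts, and those given above for single lists, therefore have no background to be set against. Of 6075 probe sets above the floor in any pool, DUKs was at least 2-fold above all 3 others for 126 and below all 3 for 18, and DU6i for 37 and 61.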

How the data were processed

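RNA of 1 pool per line was hybridised to Affymetrix chips A and B. Per the labels, the authors made labelled cRNA from a T7-oligo(dT) primer, used Data Mining Tool 1.2 and Microarray Suite 4.0.1 to obtain 1 intensity per probe set, and scaled each array by its whole set of probes. Deposited intensities are on a linear scale, with 12.8% to 30.5% of them below 0 on an array. How mismatch probes and background entered them is not given in the sources used here. Detection calls were not used.

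Gene names came from the platform annotation (7561 with 1 symbol, 224 with several, 5394 unnamed), with symbols updated through RefSeq genes. The 110 AFFX controls were left out of the comparison. The floor of a chip was the size that 95% of its negative signals do not exceed, 1022.8 on chip A and 2258.25 on chip B. Signals at or under it were set to it before log2, and a ratio against it is written "at least". A gene with several probe sets was represented by the probe set brightest on average in the 4 pools.

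Named were the 12 highest and 12 lowest genes above the floor in both pools, the 8 largest bounds in each direction, list members at 2-fold or more (of lists with more than 6 such members only the larger ones, with the rest counted) and 17 sentinel genes, of which 14 were measured; other list members are named as examples. The 37 gene lists, the named-gene rule and the pair itself were chosen with earlier results of these data known. Alternatives changed the floor, filter, scaling, chip, very bright probe sets and choice of probe set. The code was tested on simulated data, and ran in Python 3.11.15 with numpy 2.4.6 and pandas 2.3.3. Promoters came from RefSeq tables (GRCm38.p6).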

Additional observations from a re-analysis of the deposited data

How the results depend on the processing

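No gene list median past 2-fold and none of the 114 named genes past it changed sign under the other settings; of the sentinel genes under 2-fold, Fasn turned from -0.66 to 0.08 after quantile normalisation and Cd36 from 0.05 to -0.07 after rescaling to the median of shared probe sets. The counts of probe sets higher and lower were 329 and 621 of 7317 measured with the floor halved and 92 and 178 of 3811 with it doubled, against 189 and 377 of 5579; without the filter they stayed at 189 and 377. Log2(signal + floor) gave 100 higher, and needing both arrays above the floor 223 lower. Of calls, 33.4% were higher, 40.9% after quantile normalisation (213 and 308) and 27.2% with log2(signal + floor). The germ cell median was -2.39 with the floor halved and -1.17 with it doubled, and the accessory gland median -0.89 with the floor doubled or with both arrays above it. By chip A alone the medians were 0.70 for stromal, 0.41 for MHC class I, 1.12 for liver-type and -0.89 for accessory gland genes. By chip B alone they were -0.29 for mature adipocyte, -1.01 for adipokine, -0.80 for fatty acid and triglyceride synthesis, -0.57 for ribosomal, 0.54 for lymphocyte, -0.90 for MHC class I, 0.44 for cell cycle, 0.020 for liver-type, -3.32 for epididymis and -2.30 for accessory gland genes; the cause was not tested. The chip A accessory gland value is 1 gene, and the chip B ones for epididymis, accessory gland and lymphocyte genes rest on 2 each. The liver-type median was 1.08 with both arrays above the floor or without probe sets above 50000. With no filter, where genes under the floor in both pools enter as 0, it was 0.066, and the medians were 0.00 for steroidogenic, -0.050 for epithelial, -0.84 for epididymal and 0.00 for accessory gland genes. Of 114 named genes past 2-fold, 45 were under it with the floor doubled, 23 with log2(signal + floor) and 16 after quantile normalisation, with the brightest probe set chosen anew. No paired analysis was possible because each line has 1 pool. Low signals limit what could be compared: 711 probe sets were above the floor in DUKs alone and 427 in DU6i alone.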

Other observations

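Other lists had medians between -0.18 and 0.33. Proteasome and ubiquitin genes had a median log2 ratio of 0.19 over 26 measured genes, none at 2-fold, and heat shock and chaperone genes -0.18 over 31. The 3 chaperones at least 2-fold lower in DU6i were Hspa4l and Hspa2, which are also on the germ cell list, and Dnajb1 (2.08-fold). Antioxidant genes had a median of -0.02 and iron handling genes 0.07. Adipogenic factors had 0.33 over 8 genes and matrix proteases and their inhibitors 0.25 over 24. Immediate early genes, which answer to handling and stress, had a median of 0.05 over 15, with Dusp1, a phosphatase of MAP kinases, 2.01-fold higher (0.98 after quantile normalisation). Complement and coagulation genes had 0.00 over 16, cytokines and their receptors 0.09 over 21, skeletal muscle genes -0.03 over 7 and solute carriers 0.28 over 17.

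Cell division genes were split. Plk1, a mitotic kinase, and Mcm7, of the replication helicase, were at least 3.12-fold and 2.82-fold lower in DU6i, and Cdkn1a, an inhibitor of the cell cycle, had 5073 in DU6i, 322 in DUKs, -1526 in DU6 and 2830 in DBA, at least 2.25-fold higher in DU6i, with a log2 ratio of 0.57 by a second probe set. The list's median over 21 genes was -0.06. Ccr2, a receptor of monocyte chemokines, was 2.09-fold lower (-0.98 after quantile normalisation). Myl1, a myosin light chain of fast muscle, had 2952 in DU6i and 3025 in DU6 against 1435 in DUKs and 1354 in DBA, a 2.06-fold difference between DU6i and DUKs.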
